A study of Mus musculus with 4 samples.

Results

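The proteasome is the barrel-shaped protease that degrades ubiquitin-tagged proteins in the cytosol and nucleus. Genes of the mouse proteasome, its assembly factors and its regulators were taken from the expression table by symbol, as all entries that begin with Psma, Psmb, Psmc, Psmd, Psme, Psmf or Psmg. The prefixes matched 50 of 14323 genes, and 48 had a mean of at least 1 normalized count over the 4 libraries. The remaining 2, Psmb11 (the thymus-specific catalytic subunit) and Psme2b (a near copy of Psme2), had means of 0.147 and 0.584. The 48 genes comprise 5 immunoproteasome genes, 31 constitutive subunits of the core and its cap, and 12 others, which are assembly chaperones, alternative activators, an inhibitor, the testis-specific Psma8 and Psmc3ip. Psmc3ip shares only the prefix: it encodes HOP2, a meiotic recombination factor, and is no proteasome subunit.

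The libraries come from colonies of C57BL/6 mouse blood progenitors, 1 library for each of 4 groups. Short-term haematopoietic stem cells (ST-HSCs) or MPP2 multipotent progenitors, 100 cells each, were grown in 1% methylcellulose for 5 to 7 days with SCF at 25 ng/ml and IL-6, IL-3 and GM-CSF at 10 ng/ml each. The medium held 4-hydroxytamoxifen (4OHT) at 0.05 µM or the same amount of its solvent, ethanol. The labels give both 4OHT groups conditional expression of MLL-ENL, a leukaemia fusion of Kmt2a and Mllt1, and mark both ethanol groups as controls. How the fusion gene was built and driven is not stated in the sources, no group received 4OHT without it, and each library is a pool of colonies, so 4OHT and the fusion cannot be told apart. The table has no separate entry for the fusion, and its expression was not checked.

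The recovered depth was 12907412 to 14317891 reads, and 1 read was worth 0.0695 to 0.0802 normalized counts. The RNA is that of grown colonies, not of the sorted cells: neutrophil markers summed to 24331 to 43906 normalized counts and stem and progenitor markers to 166 to 393, with Slamf1 among those at 0 in a library. The sum of 393 is that of MPP2 in ethanol, and Gata2 (206) and Kit (84.1) made up most of it. Both genes are also on the mast cell and basophil list used below. Where 4 values are given below, their order is ST-HSC in ethanol, ST-HSC with 4OHT, MPP2 in ethanol and MPP2 with 4OHT. A log2 difference is taken after adding 0.5 normalized counts, and a ratio is that of the normalized counts with a 95% interval for counting error only. With 1 library per group no pair of libraries can be tested. A difference shared by both cell types, or by both treatments, was tested with limma on an additive model. The model leaves 1 residual degree of freedom, to which limma adds a variance pooled over all genes, worth 3.945 prior degrees of freedom. Its p-values and standard errors thus rest mostly on that pooled variance and partly on how well the 2 pairs agree. They do not measure the spread of replicate cultures.

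The core particle of the proteasome is a stack of rings made of alpha subunits, which gate the channel, and beta subunits, of which Psmb6, Psmb7 and Psmb5 (β1, β2 and β5) carry the active sites. Interferons and some immune cells replace these with Psmb9, Psmb10 and Psmb8, which changes the peptides produced for display on MHC class I. The regulatory cap recognizes ubiquitin and unfolds substrates with its ATPases (Psmc genes), and PA28, made by Psme1 and Psme2, is an interferon-inducible activator that opens the core without ubiquitin.

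Short stretches near the RefSeq transcription starts of 5 genes are shown because the results turn on Psmb8, Psmb10 and Psme1 and on the counterparts Psmb5 and Psmb6. They are RefSeq sequence on build GRCm38.p6, written 5′ to 3′ along the strand of the gene, with a motif match in capitals. Psmb8 lies at chr17:34198088-34198116 and Psme1 at chr14:55578493-55578522, both on the plus strand and both inside the annotated gene. The Psme1 stretch crosses the RefSeq start, and its motif begins 9 bases after that start. Psmb10 lies at chr8:105938445-105938564 and Psmb5 at chr14:54618023-54618142, both on the minus strand, and Psmb6 at chr11:70525237-70525356 on the plus strand.
Psmb8: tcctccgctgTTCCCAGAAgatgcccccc
Psme1: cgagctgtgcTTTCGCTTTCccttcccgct
Psmb10: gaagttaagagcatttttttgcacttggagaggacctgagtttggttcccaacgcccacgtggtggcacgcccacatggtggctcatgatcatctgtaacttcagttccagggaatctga
Psmb5: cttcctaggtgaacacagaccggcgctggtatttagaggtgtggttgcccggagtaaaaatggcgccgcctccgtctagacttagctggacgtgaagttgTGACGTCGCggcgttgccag
Psmb6: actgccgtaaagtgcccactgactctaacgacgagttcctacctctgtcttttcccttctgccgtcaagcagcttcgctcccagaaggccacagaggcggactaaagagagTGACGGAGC

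The capitals mark TTCNNNGAA (a gamma-activated site) in Psmb8, GAAANNGAAA on the opposite strand (an interferon-stimulated response element, bound by IRF factors) in Psme1, and TGACNNNGC (the core of an antioxidant response element, bound by NFE2L1 and NFE2L2) in Psmb5 and Psmb6. Windows of 300 bases, from 250 before to 50 after the start, were available for 27025 genes and 40 of the 48 members, and both strands were searched. GAAANNGAAA was present in 5 of 40 members (12.5%) and 3.99% of all genes, the members being Psmb3, Psmd4, Psmd9, Psme1 and Psmg4. TTCNNNGAA was present in 3 of 40 (7.5%), namely Psmb8, Psmd2 and Psmg1, and in 9.55% of all genes. The antioxidant response core was present in 6 of 40 (15%) and in 14.0% of all genes. Psmb10 had none of the 3 motifs in its window. These are matches of letters, not measured binding.

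Several of these genes have a neighbour of the same family. Psmb9 is at chr17:34181987-34187764 and Psmb8 at chr17:34197721-34201454, in the class II region of the major histocompatibility complex on GRCm38 (GENCODE M21). Psme1 (chr14:55578123-55581529) and Psme2 (chr14:55587441-55591113) are neighbours on opposite strands, as are Psmb5 (chr14:54614119-54618022) and the excluded Psmb11 (chr14:54621433-54629556).

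Levels were compared between genes per kilobase of the longest principal GENCODE transcript, so they depend on that choice of length. The core subunits were highest, with means over the 4 libraries of 189 normalized counts per kb for Psmb3, 176 for Psmb5, 168 for Psma6, 153 for Psmb4 and 153 for Psmb6. The lowest were Psma8 (0.693 per kb), which belongs to the spermatoproteasome, Psmc3ip (5.54), Psmb9 (8.19) and Psmf1 (9.48), the inhibitor PI31. Among ring partners that occur in equal number in the particle, the 7 alpha genes ranged from 43.0 per kb (Psma3) to 188 (Psma6) in ST-HSC in ethanol. Much of that range lies in the lengths used, 2846 bases for Psma3 and 1042 for Psma6. Before division by length the 2 genes had 122 and 196 normalized counts in that library. The cap spanned 35.6 per kb for the ATPase Psmc6, with a length of 2234 bases, to 123 for Psmd2 (RPN1, a ubiquitin-receptor scaffold). Deposited levels of Psmb5, Psma5, Psme2, Psmc1 and Psmd2 are uncertain, because 71.7%, 58.7%, 33.5%, 32.2% and 31.6% of their 31-base words also occur in other genes, mostly processed copies, and the same holds at 13.1% to 21.7% for Psmb3, Psma3, Psma4 and Psmd11.

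The 5 immunoproteasome genes were higher in the 4OHT library than in the ethanol library of ST-HSC cultures, and 4 of them were higher in MPP2 cultures too. Psmb10, the trypsin-like immunosubunit, had 23.6, 34.8, 14.7 and 20.1 normalized counts. It was higher with 4OHT in both cell types, with ratios of 1.47 (1.28 to 1.70) for the ST-HSC pair and 1.37 (1.13 to 1.65) for the MPP2 pair. Its level in MPP2 with 4OHT stayed below that of ST-HSC in ethanol, so the treatment groups overlap across cell types. Psmb8, the chymotrypsin-like immunosubunit, had 50.8, 63.2, 38.4 and 37.7 normalized counts, with ratios of 1.24 (1.13 to 1.37) for the ST-HSC pair and 0.982 (0.866 to 1.11) for the MPP2 pair. Only the ST-HSC pair thus differed beyond counting error, and the gap between the 2 log2 differences, -0.34, has no test. Psmb9, which sits in the caspase-like site, had 10.7, 13.2, 9.67 and 10.7 normalized counts from 133 to 184 reads. Its ratios were 1.23 (0.991 to 1.54) and 1.10 (0.862 to 1.41), and both intervals include 1.

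The activator genes were higher with 4OHT in each cell type. Psme1 (PA28α) had 67.9, 76.5, 57.3 and 71.4 normalized counts, with ratios of 1.13 (1.03 to 1.23) for the ST-HSC pair and 1.25 (1.13 to 1.37) for the MPP2 pair. Psme2 (PA28β) had 70.7, 88.8, 65.7 and 76.0, with ratios of 1.25 (1.15 to 1.36) and 1.16 (1.05 to 1.27). The 4OHT library was the higher of its pair each time, though the MPP2 values with 4OHT lay among the ST-HSC values. PA28 is a mixed ring of both proteins, and the Psme1 to Psme2 ratio per kb kept between 0.745 and 0.830 in the 4 libraries.

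**Figure D1:**
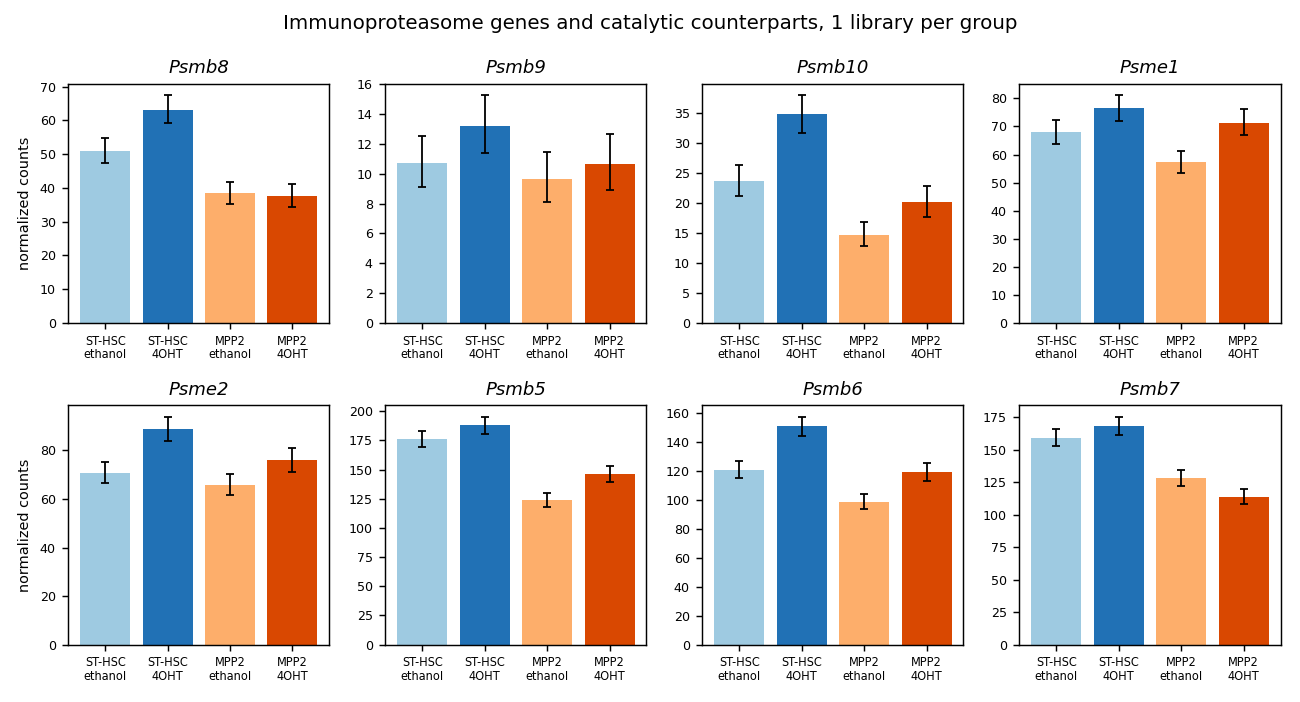
Normalized counts of the 5 immunoproteasome genes and the 3 constitutive catalytic counterparts, with 1 bar per library and a 95% Poisson interval for counting error. Psmb10 is at 23.6 and 34.8 in the ST-HSC bars and at 14.7 and 20.1 in the MPP2 bars, while Psmb8 differs between the ST-HSC bars only (50.8 and 63.2, against 38.4 and 37.7).

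The counterparts gave a mixed picture. Psmb6 (β1) had 121, 151, 98.8 and 119 normalized counts, with ratios of 1.25 (1.17 to 1.33) for the ST-HSC pair and 1.21 (1.12 to 1.30) for the MPP2 pair, close to those of the activator genes. Psmb5 (β5) had 176, 188, 124 and 146, with ratios of 1.07 (1.01 to 1.13) and 1.18 (1.10 to 1.26). Psmb7 (β2) had 159, 168, 128 and 114, with ratios of 1.06 (0.999 to 1.12) and 0.888 (0.828 to 0.953), so it was lower with 4OHT in MPP2 cultures.

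Within each catalytic pair the share of the immunosubunit, from levels per kb, describes how far the transcripts lean toward the immune form. The size of a share depends on the transcript lengths chosen, but a ratio between libraries does not. Psmb10 made up 11.6%, 15.4%, 9.23% and 13.5% of Psmb10 and Psmb7 together. The Psmb10 to Psmb7 ratio was 1.39 times as high (1.20 to 1.61, a normal approximation on log counts) with 4OHT in ST-HSC and 1.54 times (1.26 to 1.88) in MPP2. Psmb8 made up 13.7%, 15.7%, 14.6% and 12.5% of Psmb8 and Psmb5, and its ratio was 1.17 times as high (1.04 to 1.30) in ST-HSC but 0.836 times (0.726 to 0.962) in MPP2. These 2 intervals lie on opposite sides of 1, yet the difference was not tested, and the Psmb5 level is uncertain as given above. Psmb9 made up 4.97%, 4.92%, 5.46% and 5.02% of Psmb9 and Psmb6. Its ratio to Psmb6 was 0.990 times as high with 4OHT in ST-HSC (0.792 to 1.24) and 0.914 times in MPP2 (0.712 to 1.18). Both intervals include 1, as do those of Psmb9 itself. Summed over the 3 pairs, the immune form took 10.6%, 12.1%, 10.1% and 10.2% of catalytic transcripts, so the constitutive form predominated in each library.

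**Figure D2:**
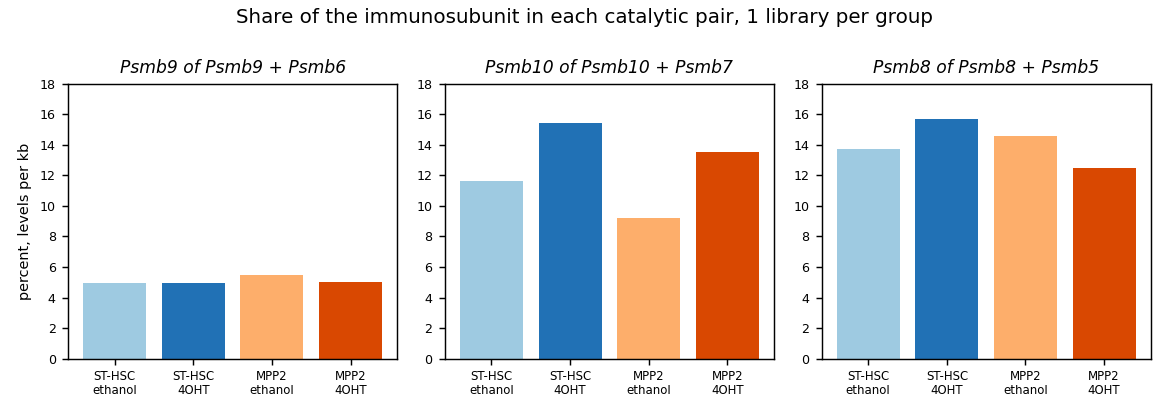
Share of each immunosubunit in the summed level per kb of the immunosubunit and its constitutive counterpart, with 1 bar per library and no error bar. The Psmb10 share is higher with 4OHT in both cell types (11.6% to 15.4% and 9.23% to 13.5%), the Psmb9 share stays between 4.92% and 5.46%, and the Psmb8 share is higher in ST-HSC and lower in MPP2.

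As a group, the immunoproteasome genes had a median log2 difference with 4OHT of 0.31 in ST-HSC (0.17 to 0.55) and 0.21 in MPP2 (-0.03 to 0.44). Brackets after a median give the lowest and highest gene of the set, not a confidence interval. The 31 constitutive subunits had medians of 0.05 (-0.13 to 0.32) and -0.01 (-0.39 to 0.27), and all 11370 tested genes -0.00 in both. In MPP2 the contrast depends on the setting: the median of the 3 catalytic counterparts alone was 0.232, above that of the immunoproteasome genes, and removal of the GC trend lowered the immunoproteasome median to 0.113. Summed normalized counts of the 5 genes were 224, 276, 186 and 216, and those of the constitutive subunits 4516, 4690, 3622 and 3675. With 0.5 added, none of the 48 genes was 2-fold different in ST-HSC, against 2.65% of all genes, or in MPP2, against 3.02%. In MPP2 1 member passed with 0.1 added or with the GC trend removed. In ST-HSC 35 members were higher with 4OHT, against 49.3% of all genes, and the counting interval lay above 1 for 15 of the 48, against 18.8% of all genes. In MPP2 24 were higher, against 49.7%, with intervals above 1 for 15 of the 48, against 23.9% of all genes. No member had intervals on opposite sides of 1 in the 2 cell types, against 5.36% of all genes. The interval lay above 1 in both cell types for 8 members, against 9.19% of all genes. They were Psmb10, Psme1, Psme2, Psmb5, Psmb6, Psmc5, Psmd2 and Psmd9. For the opposite direction there were 3, Psme4, Psmd1 and Psmd14, against 9.95% of all genes. Members were higher with 4OHT in both cell types in 21 of 48, of which 4 were immunoproteasome genes and 13 constitutive, against 30.4% of all genes, and lower in both in 10, against 31.4%.

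No member passed the test of the shared 4OHT effect. Limma called 6 of 11370 genes (0.0528%) at an adjusted p under 0.05 and 0 members. At an unadjusted p under 0.05 it gave 1 member, Psmb10, among 14.2% of all genes. Psmb10 had the lowest adjusted p, with a shared log2 difference of 0.49 ± 0.13 (SE, 4 libraries) and an adjusted p of 0.214. EdgeR's quasi-likelihood test on the recovered reads called 604 genes (5.31%) and 0 members, again with Psmb10 lowest at an adjusted p of 0.0577, and it gave 6 members at an unadjusted p under 0.05, of which 3 were immunoproteasome genes, against 17.0% of all genes.

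The remaining members moved in either direction with 4OHT, some alike in both cell types and some in a single library. Psmg4 (PAC4, a chaperone of alpha-ring assembly) had 6.19, 11.5, 6.35 and 5.46 normalized counts, with ratios of 1.86 (1.42 to 2.44) for the ST-HSC pair and 0.859 (0.617 to 1.19) for the MPP2 pair. The high value is that of a single library, ST-HSC with 4OHT. Psmg2 (PAC2) had 19.7, 25.0, 14.9 and 13.9, also highest in that library. Psma8 had 1.04, 0.934, 0.866 and 1.85 from 12 to 23 reads, and its MPP2 ratio of 2.13 (1.02 to 4.70) rests on those few reads. Psmd9 (p27), a chaperone of the cap ATPases, had 26.1, 32.1, 22.9 and 28.1, with the ratio 1.23 in both cell types (1.07 to 1.42 and 1.05 to 1.43). Psme4 (PA200), a nuclear activator linked to histone turnover, had 163, 139, 176 and 148, and its ratios of 0.850 (0.800 to 0.903) and 0.841 (0.792 to 0.894) were among the lowest with 4OHT. In the cap, Psmd1 (RPN2) had 230, 210, 185 and 157, and the deubiquitinase Psmd14 (RPN11) 125, 116, 98.5 and 85.0, lower with 4OHT in each pair. Psmc6 (RPT4) had 88.2, 86.0, 81.5 and 62.3 and stood low in MPP2 with 4OHT alone, with a ratio of 0.764 (0.697 to 0.838). With the trend on transcript GC content removed, the shared 4OHT log2 differences of Psmd14 (-0.16) and Psmc6 (-0.21) turned to 0.00664 and 0.0650. Across the 48 genes the ST-HSC and MPP2 differences correlated with a Pearson r of 0.17 and a Spearman rho of 0.33, beside 0.43 and 0.36 over all tested genes, as a description across genes of 4 libraries.

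**Figure D3:**
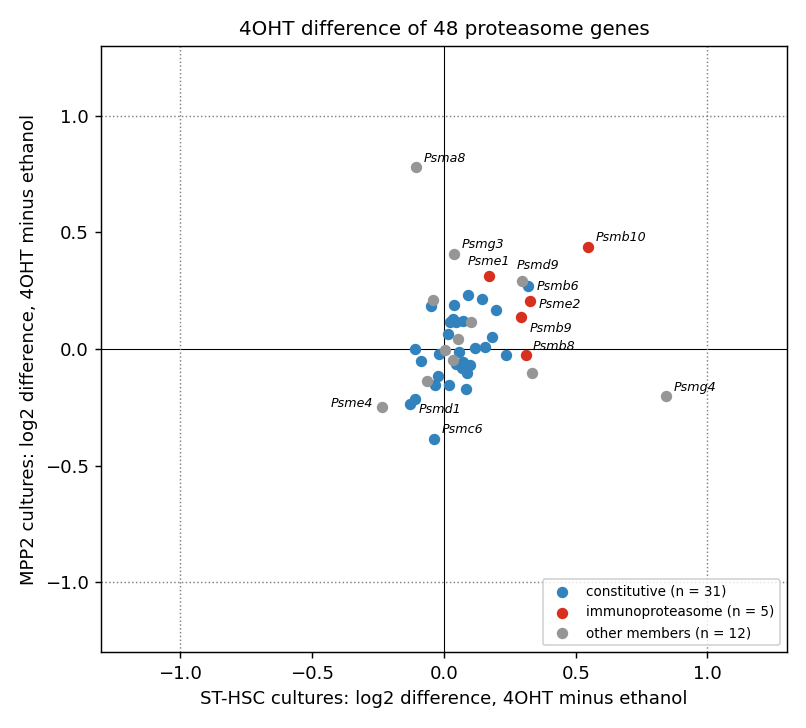
Log2 difference, 4OHT minus ethanol, of 48 genes in ST-HSC cultures (horizontal) and MPP2 cultures (vertical), with immunoproteasome genes in red, constitutive subunits in blue and others in grey, and dotted lines at 2-fold. The red points lie at 0.17 to 0.55 on the horizontal axis and -0.03 to 0.44 on the vertical axis, and no point passes a dotted line.

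With 4OHT some marker lists moved in the direction of the immunoproteasome genes and others did not. Dendritic cell markers, which belong to a cell type rich in immunoproteasome, summed to 224, 339, 100 and 218 normalized counts. Of 11 markers 10 were in the table, all but Siglech, and none of these was listed at 0. Flt3, Zbtb46 and Xcr1 did not reach the mean of 1. The 7 that did (Itgax, Cd74, H2-Aa, H2-Ab1, H2-Eb1, Ciita and Batf3) were higher with 4OHT in both cell types. Their median log2 differences were 0.57 and 0.89. Cd74 made up much of the sum, at 118, 177, 49.5 and 118. Which cells expressed these 7 genes was not tested. Monocyte and macrophage markers summed to 918, 1105, 1457 and 1838 (13 of 14 in the table, with C1qb and C1qc at 0 in a library). Of the 10 tested, 9 were higher with 4OHT in ST-HSC, all but Itgam, and 8 in MPP2, all but Cd14 and Ccr2. Itgam made up much of the sum, at 588, 550, 1059 and 1201. Type I interferon response genes summed to 203, 456, 243 and 394, and all 18 that passed the mean of 1 were higher with 4OHT in both cell types, with medians of 2.72 and 1.10. Limma called 0 of them and edgeR 15. Lymphocyte markers summed to 26.4, 33.8, 50.1 and 38.9, with 5 of 11 in the table, so the sum was lower with 4OHT in MPP2. Neutrophil markers were lower with 4OHT in ST-HSC for 10 of 11 (median log2 difference -0.40) and higher in MPP2 for 8 of 11 (0.18). Mast cell and basophil markers were mostly lower with 4OHT, with medians of -0.81 in ST-HSC and -1.49 in MPP2, and edgeR called 9 of 11 lower. Of 9 erythroid markers 8 were lower in MPP2 (median -1.88). In ST-HSC 3 were higher and 3 lower (median 0), with Hba-a2, Hbb-b1 and Slc4a1 at 0 in both libraries. EdgeR called 7 erythroid markers lower, and most of these calls rest on the level of 1 library, MPP2 in ethanol. Limma called 0 of either list. Mast cell and basophil markers summed to 237, 181, 1781 and 658. The part of these cells and of the interferon response in the values of the members was not tested. In such bulk libraries fewer cells of a type and less RNA per cell cannot be told apart.

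Genes known to induce the immunoproteasome, and those that use its peptides, were followed as lists chosen with earlier results known. Of 13 inducers limma called 0 for the shared 4OHT effect and edgeR 3, all higher. Irf9, a part of the interferon-activated factor ISGF3, had 7.79, 19.8, 14.3 and 24.9 normalized counts, with an edgeR adjusted p of 0.00344. Nlrc5, the transactivator of class I genes, had 7.79, 16.2, 5.84 and 10.3 (edgeR adjusted p 0.0128), and Irf8, which is high in monocyte and dendritic lineages, had 25.7, 42.1, 7.65 and 15.3 (edgeR adjusted p 0.00547). Of 11 class I presentation genes limma called 0 and edgeR 2, again higher. These were Tap1, a subunit of the peptide transporter, with 30.8, 53.0, 32.3 and 49.8 (edgeR adjusted p 0.00386), and Tapbp (tapasin) with 142, 184, 175 and 238 (edgeR adjusted p 0.0480). B2m, the light chain of class I, had 246, 363, 363 and 387, with an edgeR adjusted p of 0.193. Tap1 lies beside Psmb9, and its log2 differences of 0.77 and 0.62 stand beside 0.29 and 0.14 for Psmb9.

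For the constitutive subunits the larger difference was between the cell types, and lower values in MPP2 ran through nearly the whole complex. For the immunoproteasome genes the medians with 4OHT, 0.31 in ST-HSC and 0.21 in MPP2, were of similar size to those between cell types. Of the 48 genes, 45 were lower in MPP2 than in ST-HSC cultures in ethanol and 45 under 4OHT, against 54.0% and 51.8% of all genes, and 44 were lower in both, against 42.2%. All 31 constitutive subunits and all 5 immunoproteasome genes were among the 44. The median log2 difference of the constitutive subunits was -0.32 in ethanol and -0.37 under 4OHT, that of the immunoproteasome genes -0.24 and -0.30, and that of all genes -0.04 and -0.02. Together the 48 genes took 0.546% and 0.578% of reads in the ST-HSC libraries and 0.446% and 0.433% in the MPP2 libraries.

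Both MPP2 libraries lay below both ST-HSC libraries for 40 of 48 genes, against 33.7% of all genes, and above them for 1, Psmd10, against 28.8%. Psmd10 (gankyrin, a chaperone of cap assembly) had 20.9, 20.3, 21.3 and 24.7 normalized counts, with MPP2 to ST-HSC ratios of 1.02 (0.863 to 1.20) in ethanol and 1.21 (1.03 to 1.43) under 4OHT, so its counting interval excluded 1 under 4OHT only. The 40 include 30 of 31 constitutive subunits, the exception being Psmd8 (RPN12), with 157, 178, 155 and 161 normalized counts. They also include Psmb8, Psmb9 and Psmb10, but not Psme1 or Psme2. The counting interval lay below 1 in both treatments for 37 members, against 22.8% of all genes, and above 1 in both for Psme4 alone, against 20.1%. No member was 2-fold lower in ethanol (7.13% of all genes passed), and under 4OHT the sole member was Psmg4 at a log2 difference of -1.01 (7.1% passed), a call that was lost when 1 normalized count was added instead of 0.5.

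By role, the median log2 differences in ethanol and under 4OHT were -0.39 and -0.54 for the alpha ring, -0.31 and -0.40 for the structural beta subunits, -0.31 and -0.36 for the catalytic ones, -0.34 and -0.36 for the ATPases and -0.31 and -0.34 for the other cap subunits. Psma5 had 135, 142, 96.9 and 91.5 normalized counts and a shared log2 difference of -0.56 ± 0.13. Psma3 had 122, 129, 88.9 and 85.4, with -0.52 ± 0.13, and Psma4 had 94.8, 101, 71.4 and 66.3, with -0.50 ± 0.13. Psma1 and Psma6, at -0.27 and -0.25, differed less. In the beta ring Psmb4 had 200, 207, 153 and 166 (-0.35 ± 0.13) and Psmb3 150, 177, 127 and 125 (-0.37 ± 0.14). The cap behaved alike, with Psmc4 (RPT3) at 127, 133, 94.4 and 103, Psmc3 (RPT5) at 203, 208, 158 and 180, Psmd13 (RPN9) at 138, 134, 101 and 114 and Psmd2 at 368, 406, 314 and 365. For each of these genes except Psmd2 the MPP2 values lay well under the ST-HSC values, and for Psmd2 the MPP2 library with 4OHT came close to ST-HSC in ethanol. Psme3 (PA28γ, the nuclear activator) had 274, 285, 213 and 220, and Psmd5, a cap chaperone, had 100, 103, 80.9 and 78.3. Psmf1 had 36.8, 39.5, 32.7 and 35.5, and both its counting intervals include 1.

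**Figure D4:**
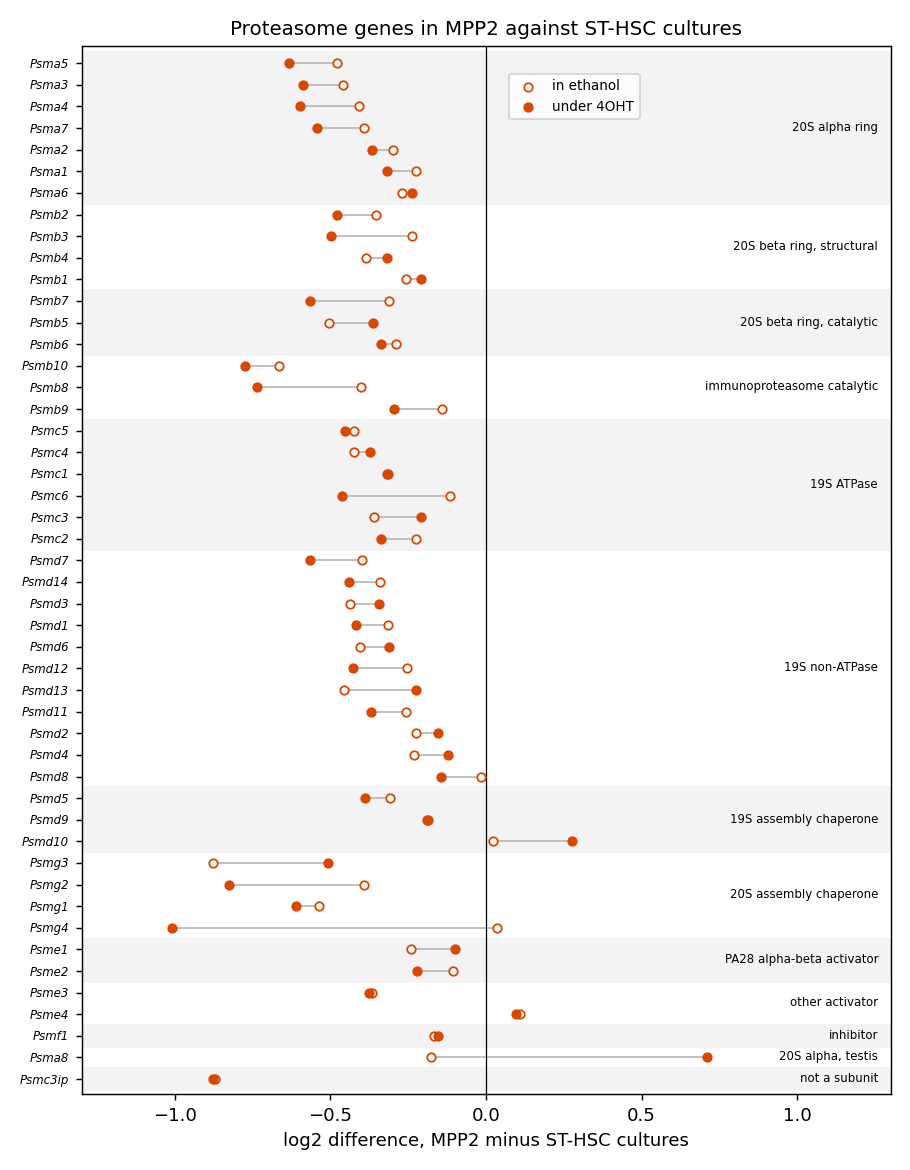
Log2 difference, MPP2 minus ST-HSC, of each of 48 genes in ethanol (open points) and under 4OHT (filled points), grouped by role. All points of the 31 constitutive subunits lie left of 0, and the genes with a point to the right are Psmd10, Psmg4, Psme4 and Psma8.

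Limma's test of the shared cell type effect called 4 members, all lower in MPP2 cultures, while it called 604 of all genes (5.31%) lower. Psmc3ip fell most, from 9.39 and 9.41 to 4.91 and 4.89 normalized counts, with a log2 difference of -0.87 ± 0.13 and an adjusted p of 0.0225. Psmb10 followed at -0.72 ± 0.13 (adjusted p 0.0321). Psmg3 (PAC3), with 14.7, 15.2, 7.79 and 10.5, fell by 0.69 ± 0.15 on the log2 scale (adjusted p 0.0453), and Psmg1 (PAC1), with 27.3, 26.1, 18.7 and 16.9, by 0.57 ± 0.13 (adjusted p 0.0472). So 2 of the 4 encode chaperones of the alpha ring. Of the constitutive subunits limma called 0, with 18 (and 26 members in all) at an unadjusted p under 0.05, against 37.7% of all genes, and a lowest adjusted p of 0.0518 for Psma5.

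EdgeR, which borrows its error estimate differently, called 30 members lower, among them 22 constitutive subunits, Psmb8 and Psmb10, while it called 15.8% of all genes lower. At an unadjusted p under 0.05 it gave 36 members, against 43.2% of all genes. In edgeR the adjusted p was 0.00191 for Psma5, 0.00264 for Psma3 and 0.00903 for Psmb5. The limma calls rest on adjusted p-values near the threshold: without the minimum mean of 1 it called 0 members, and with a mean of at least 5 it called 16. In each of the 12 settings fitted, 45 members lay below 0. For the filters, the limma trend fits and the single-factor fit this was fixed in advance, because they leave a gene's own difference unchanged. Only the added constants, the scalings, edgeR and GC removal could change a sign, and all settings use the same 4 libraries.

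Genes that work with the proteasome under other names gave a similar sign. Of 14 partners 13 were in the table, and 10 were lower in MPP2 in either treatment. EdgeR called 5 lower, which were Adrm1 and Uchl5 (the cap ubiquitin receptor RPN13 and its deubiquitinase), the cap deubiquitinase Usp14, Txnl1 and the shuttle factor Rad23b, and limma called 0. Adrm1 had 101, 114, 78.1 and 91.1 normalized counts, and Rad23b had 274, 281, 206 and 191. Among 8 cytosolic peptidases, which trim the peptides that the proteasome releases, limma called Thop1 (59.2, 68.9, 31.1 and 35.1, adjusted p 0.0195) and Lap3 (65.3, 76.4, 44.1 and 43.3, adjusted p 0.0396) lower, and edgeR called both lower. Of 6 ubiquitin and E1 genes limma and edgeR called 0. The 8 genes of the NFE2L1 pathway, which drives constitutive subunit transcription, moved in both directions between the cell types: limma called 0 and edgeR 4, all higher in MPP2 cultures (Nfe2l2, Ngly1, Mafg and Mafk), while Ddi2 had log2 differences of -0.29 in ethanol and -0.13 under 4OHT and Vcp of -0.19 and -0.23, neither called. Nfe2l1 itself had 133, 130, 131 and 148, with an edgeR adjusted p of 0.611. Of the 13 inducers limma called 1, Irf8, lower in MPP2 cultures (adjusted p 0.00755), and edgeR called 5 higher, Irf1 and Irf9 among them, and 1 lower, Irf8.

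Marker lists of other cells also differed between the cell types. Mast cell and basophil markers, with the sums given above (11 of 12 in the table, with Cma1 and Tpsb2 at 0 in a library), were higher in MPP2, with 10 of 11 called by limma. Erythroid markers summed to 711, 540, 756 and 433 (11 of 12 in the table), with Hba-a2, Hbb-b1, Hbb-bt and Slc4a1 among those at 0 in a library, and limma called 4 of 9 higher in MPP2. Most of that sum is Tfrc (708, 538, 593 and 413), the transferrin receptor, while the globin Hba-a1 had 0.209, 0.144, 46.0 and 2.49. Neutrophil markers, the most abundant list, summed to 32559, 24331, 43906 and 42862 (11 of 12 in the table), and limma called 5 of 11 higher in MPP2 and 3 lower, the latter being Mpo, Elane and Prtn3, enzymes of early granules. Of the 10 monocyte and macrophage markers tested, limma called 3 (Cd68, Cd14 and Itgam) higher in MPP2. Of the 7 dendritic cell markers that passed the mean of 1, 6 were called lower. Their part in the lower proteasome values was not tested.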

How the data were processed

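Per the labels' protocols, total RNA of colony cells was depleted of rRNA and made into strand-specific libraries from 200 ng. The tools named are edgeR, RSEM, Bowtie2 and Trimmomatic 0.36, with build mm10, per the submitters' processing notes; their order and the gene models are not stated in the sources. The deposited signal values are normalized counts. All 57292 values (100%) lay within 1e-06 of a whole number of reads after division by the step of their column, and the steps equal 1 read over an effective library size under TMM factors of 1.00, 1.02, 1.01 and 0.966. Coordinates and transcript lengths came from GENCODE M21 on GRCm38, the assembly of mm10, and promoters from RefSeq.

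Members and gene lists were chosen with earlier results of these data known. Tests covered the 11370 genes whose mean reached 1 normalized count, on log2 values after adding 0.5. A call for a pair of libraries means 2-fold. Intervals for a ratio of 2 libraries are 95% binomial ones (exact, conditional on the summed reads) and cover counting error only. Shared effects were fitted with limma 3.58.1 (no trend, not robust) on cell type and treatment, 3 coefficients over 4 libraries, with Benjamini-Hochberg adjustment over all tested genes at 0.05. EdgeR 4.0.16 (quasi-likelihood, on recovered reads, 604 genes called for 4OHT), DESeq2 1.42.0 size factors, other constants, filters and scalings were alternatives, and removal of the GC trend was added after the data were seen. Nothing in the labels says that libraries are replicate cultures. Named genes are the immunoproteasome genes and their counterparts, members past a threshold and the 2 highest levels per role. They also include the 3 highest and 3 lowest differences among the remaining members, in each comparison of treatments and of cell types. From pathway lists, called genes and the 3 largest differences are named. Other members and list genes are named where a count of 5 or fewer is spelled out or a contrast is drawn. These were picked after their values were seen. The code was tested on simulated data. R 4.3.3 and Python 3.11.15 were used.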

Additional observations from a re-analysis of the deposited data

How the results depend on the processing

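No paired analysis was possible because each group has 1 library and the labels carry no replicate number, and leaving out a library leaves 3 libraries for 3 coefficients, so no such fit was run. Among results that answer a comparison, 153 values were labelled the same as in the main setting and 47 as moved. A move means a changed value, not necessarily a changed sign or direction. Where no cause is given, the cause was not tested. Requiring a mean of 5 lowered the 2-fold genes to 155 (from 301) in ST-HSC, 162 (from 343) in MPP2, 461 (from 811) between cell types in ethanol and 483 (from 807) under 4OHT, as fewer genes were tested. Members past 2-fold became 1 in MPP2 with 0.1 added or the GC trend removed, and 0 under 4OHT between cell types with 1 added.

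Genes called for the shared 4OHT effect (6) became 0 with 0.1 added, without a filter, with total-count scaling, DESeq2 size factors, a single factor or GC removal, and 92 with 1 added, 230 with a mean of 5, 598 and 523 with a limma trend (plain and robust) and 604 with edgeR; members stayed at 0 in all of these. Genes called for cell type (1727) became 852 with 0.1 added, 559 without a filter, 2719 with a mean of 5, 3761 and 3656 with a trend, 3672 with edgeR, 264 with a single factor and 787 with GC removal. Members called (4) became 1, 0, 16, 30, 30, 30, 1 and 1 in the same order, 9 with 1 added and 2 with DESeq2 size factors.

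The constitutive median moved in ST-HSC to 0.0690 with total counts, 0.0688 with GC removal and 0.0926 for the 3 counterparts. In MPP2 it moved to -0.0782, 0.0159 and 0.232 in that order, so its sign depends on the setting. Between cell types it moved to -0.296 in ethanol with GC removal and to -0.444 with total counts and -0.338 with GC removal under 4OHT. The immunoproteasome median moved to 0.113 in MPP2 with GC removal and to -0.372 between cell types under 4OHT with total counts.

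Shared 4OHT differences changed sign for Psma3 (-0.0152) and Psmc3ip (-0.0196) with total counts, and for Psma4 (0.0752), Psmc3ip (-0.0266), Psmc6 (0.0650), Psmd13 (-0.0129) and Psmd14 (0.00664) with GC removal. Depth limits Psma8 most, with 12 to 23 reads a library.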
